A study of Homo sapiens with 17 samples.

Results

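The BCL2 family genes described here are 10 of the 19222 genes counted in TimeLapse sequencing (TL-seq) libraries of HEK-293T cells treated with emetine. They were taken by symbol as a fixed list: the anti-apoptotic genes *MCL1*, *BCL2* and *BCL2L1*, the BH3-only genes *BCL2L11*, *PMAIP1*, *BBC3*, *BID* and *BIK*, and the effectors *BAX* and *BAK1*. All 10 were found in the 1 h experiment and 8 in the tables of the 2 h experiment, where *BBC3* and *BIK* are not listed. HEK-293T is a wild-type line of human embryonic kidney cells that carries adenoviral E1 genes, among them a viral relative of BCL2, and the SV40 large T antigen. Emetine is an alkaloid that stops ribosomes from moving along the mRNA. In the 1 h experiment, 3 libraries came from cells given 500 µM 4-thiouridine (s4U) alone and 3 from cells given s4U together with 1.8 µM emetine. In addition, 1 untreated and 1 emetine-treated (1.8 µM) library came from cells that received no s4U. The 2 h experiment held 3 untreated libraries, 3 with 1.8 µM and 3 with 240 µM emetine, all with 250 µM s4U. In TL-seq, s4U that cells build into RNA is recoded so that it reads as a T-to-C conversion, and this separates RNA made during the treatment from RNA that was there before.

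BCL2 family proteins decide at the mitochondrial outer membrane whether a cell starts apoptosis. The effectors BAX and BAK form pores that release cytochrome c, the anti-apoptotic members hold the effectors in check, and the BH3-only members neutralize the anti-apoptotic members or activate the effectors. MCL1 is a short-lived protein that is lost soon after translation stops, and NOXA, the product of *PMAIP1*, binds it.

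The 8 libraries of the 1 h experiment held 27416189 to 48852046 reads, of which 81.1% to 82.3% were assigned to genes. Levels are given in CPM, reads scaled to a common library size by TMM, mean ± SD over 3 libraries, and fold changes come from edgeR on the read counts. The HEK-293T markers were present, with 7 of 8 at 1 CPM or more in both groups (summed level 993 to 1121 CPM in untreated and 917 to 1017 CPM in emetine libraries). Of 12 markers of blood, liver, skin and hormone-responsive epithelium, 6 had no read in the libraries with s4U, and the summed level was 2.69 to 3.68 CPM in untreated and 2.10 to 3.87 CPM in emetine libraries. Emetine replicate 3 stood apart: its log2 levels deviated from the mean of its group with an SD of 0.271 over 11639 genes, against 0.103 to 0.165 in the other 5 libraries. This deviation followed transcript length (Spearman's rho 0.75 across genes, which are not independent replicates). Emetine replicates 1 and 2 deviated the other way with length (rho -0.66 in both), as deviations from a mean of 3 that includes replicate 3. The fold change in level of each member is also given without this library.

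The members differ widely in the parts of the transcript outside the coding sequence. In GENCODE 44 on GRCh38, the 3′ UTR of *BCL2L11* (chromosome 2, 111119378 to 111168444) makes up 82.6% of the transcript, that of *PMAIP1* (chromosome 18, 59899996 to 59904305) 81.7% and that of *MCL1* (chromosome 1, 150560895 to 150579738) 71.3%, against 20.4% for *BAX* (chromosome 19, 48954815 to 48961798). The AU-rich pentamer ATTTA, a letter pattern known from short-lived mRNAs and searched on the transcript strand only, was found 10 times in the 3′ UTR of *MCL1*, 13 times in *BCL2*, 8 times in *BCL2L11*, 5 times in *PMAIP1*, 3 times in *BCL2L1*, 2 times in *BID* and 1 time in *BIK*. It was not found in *BBC3*, *BAX* or *BAK1*. Thus 7 of the 10 members held it, and 70.6% of the 16251 annotated 3′ UTRs did. The longer form TTATTTATT was found in 2 members and in 9.09% of all 3′ UTRs. Both sites are shown with the nonamer in capitals, since they are the AU-rich sequences of the strictest form in these genes. They lie on chromosome 18 of GRCh38, at chr18:59903961-59903989 on the plus strand in *PMAIP1* and at chr18:63128353-63128381 on the minus strand in *BCL2*.
PMAIP1: aggaataattTTATTTATTttgcctattt
BCL2: aaaaaaagatTTATTTATTtaagacagtc

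RefSeq promoters (GRCh38.p14, 250 bases before to 50 after the start) were matched for 8 of the 10 members. No promoter was matched to *MCL1* or *BIK*, so these were not searched for motifs. The 250 bases before the start of *PMAIP1*, chr18:59899746-59899995 on the plus strand, are shown because it was the member that passed the test of level. The capitals mark ACGTCA, the reverse complement of TGACGT, which is part of the sequence that factors of the ATF and CREB family bind.
PMAIP1: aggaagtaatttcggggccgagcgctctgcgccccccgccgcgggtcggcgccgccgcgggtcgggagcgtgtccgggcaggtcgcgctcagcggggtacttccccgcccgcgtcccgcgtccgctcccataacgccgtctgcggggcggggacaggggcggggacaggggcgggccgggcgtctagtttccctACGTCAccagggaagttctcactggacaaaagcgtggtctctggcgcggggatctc
On either strand, TGACGT was found in 7.98% of 35116 promoters and, among the 8 matched members, in *PMAIP1* alone. The full element TGACGTCA, which contains TGACGT, was in 1.85% of promoters and in no matched member. The GC box GGGCGG, held by 45.0% of promoters, was found 4 times in *PMAIP1* and *BID*, 3 times in *BCL2L11* and 2 times in *BAX* and *BAK1*. TATAAA (11.5% of promoters) was found 2 times in *BCL2L1* and not in *PMAIP1*. The E-box CACGTG (7.26% of promoters) was found in *BBC3* and *BAX*. A match of letters is a description and was not tested for binding.

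Of the 10 members, *PMAIP1* alone passed the test of level after 1 h of emetine, with a 1.86-fold increase. *MCL1* was 1.25-fold higher and did not pass after correction, and no other member passed. Across all 13776 genes tested with edgeR, 2.64% were raised and 0.0436% lowered at an adjusted p under 0.05, against 1 raised and 0 lowered of the 10 members. At an unadjusted p under 0.05, 2 members were called, *PMAIP1* and *MCL1*, both higher. The share of all genes at that unadjusted threshold is not given, so this count is a description only. After correction, DESeq2 also called *PMAIP1* alone. Log2 fold changes had a median of 0.09 over the members and 0.03 over all genes tested. In another setting, the trend of levels on length and GC content of the transcript was taken out of each library. With this, edgeR called 968 genes higher and 182 lower in place of 363 and 6, with *PMAIP1* still the only member called.

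**Figure D1:**
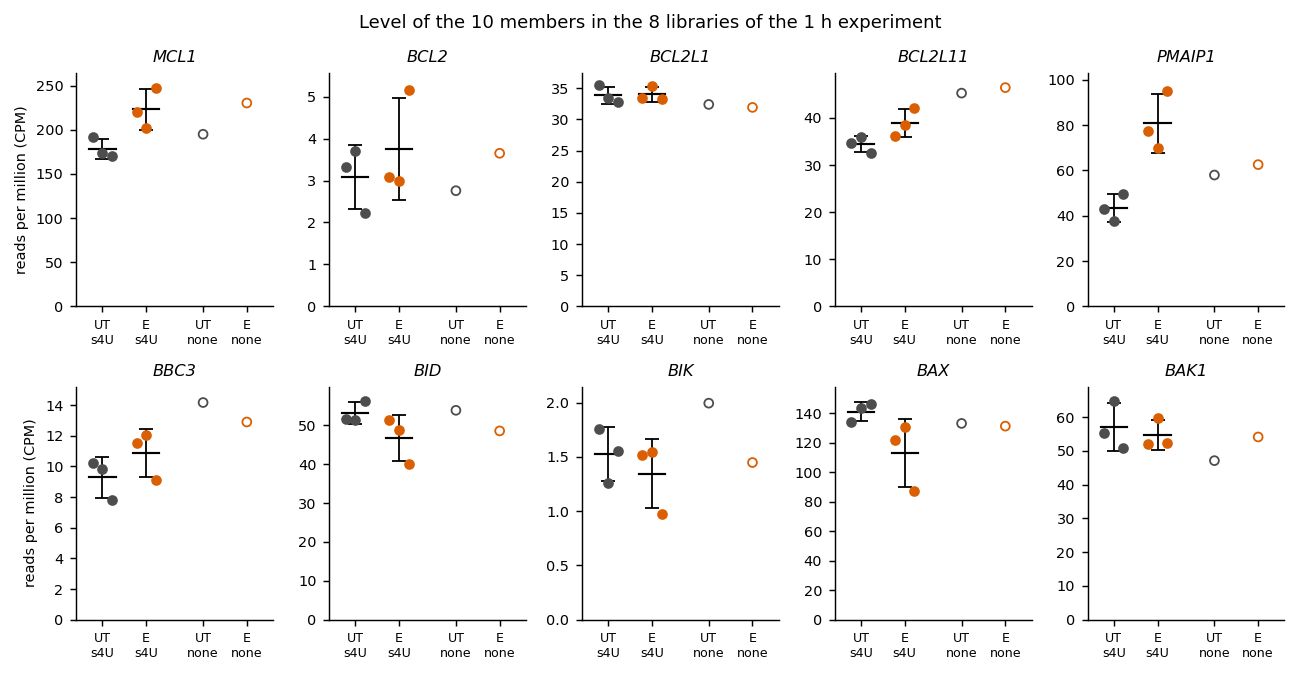
Level of each member in CPM (y axis, from 0, each panel with its own scale, scaled over all 8 libraries) in untreated (UT, gray) and emetine (E, orange) libraries with s4U (filled, with the mean and SD of 3 libraries) and without s4U (open, 1 library each). The *PMAIP1* levels with emetine and s4U lie at 69.8 to 95.1, above the untreated levels with s4U and above both libraries without s4U.

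Among the anti-apoptotic genes, *MCL1* encodes the labile guardian that sequesters BAK and BIM. It had 191, 174 and 170 CPM in the untreated and 220, 202 and 247 CPM in the emetine libraries. The groups did not overlap, and the mean was 178 ± 11.4 CPM without and 223 ± 22.9 CPM with emetine. The log2 fold change was 0.32 (SE 0.10), with an edgeR adjusted p of 0.149. Without emetine replicate 3, in which it was highest, the log2 fold change was 0.24 (SE 0.07) and passed the edgeR test, with an adjusted p of 0.025. In that fit, edgeR called 1367 genes higher and 525 lower, in place of 363 and 6. *BCL2L1*, which encodes the BCL-xL protein, had 35.5, 33.4 and 32.9 CPM in untreated and 33.4, 35.4 and 33.3 CPM in emetine libraries. Its groups overlapped fully, and its log2 fold change was 0.01 (SE 0.09, edgeR adjusted p = 0.970) and 0.03 without emetine replicate 3. *BCL2*, the founding member of the family, was low, with 47 to 137 reads in a library with s4U and 3.33, 3.70 and 2.22 CPM in untreated cells. With emetine it had 3.08, 3.0 and 5.14 CPM, the highest again in replicate 3. Its log2 fold change was 0.25 (SE 0.28, edgeR adjusted p = 0.588), and -0.04 without that library.

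Among the BH3-only genes, *PMAIP1* encodes NOXA, which binds MCL1. It had 42.8, 37.7 and 49.7 CPM in the untreated libraries and 77.6, 69.8 and 95 CPM with emetine. Every emetine library was above every untreated one. The log2 fold change was 0.90 (SE 0.14), with an edgeR adjusted p of 0.016, and ranked 240th from the top of all genes tested. Without emetine replicate 3 it was 0.77, with an edgeR adjusted p of 7.9e-05. The call was lost when any one untreated library was left out, with edgeR adjusted p-values of 0.118, 0.118 and 0.073 without replicates 1, 2 and 3 and log2 fold changes of 0.89, 0.80 and 1.00. It was also lost when the libraries were scaled to spike-in reads, where the log2 fold change was 1.63 (SE 0.47, edgeR adjusted p = 0.074). That scaling moved the median of all genes from 0.03 to 0.71, and with it *BID*, *BIK*, *BAX* and *BAK1*, negative here, to 0.33 to 0.56. The share of spike-in reads varied within each group, at 0.480% to 0.728% in untreated and 0.304% to 0.666% in emetine libraries with s4U.

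*BCL2L11*, which encodes the BIM protein, had 34.7, 35.9 and 32.6 CPM in untreated and 36.1, 38.5 and 42.1 CPM in emetine libraries. These groups did not overlap, yet the log2 fold change was 0.17 (SE 0.10, edgeR adjusted p = 0.305). *BBC3*, which encodes PUMA, a protein that binds all anti-apoptotic members, had 10.3, 9.80 and 7.79 CPM in untreated and 11.5, 12 and 9.12 CPM in emetine libraries, with overlap (log2 fold change 0.23, SE 0.16, edgeR adjusted p = 0.401). *BID*, whose protein is activated by caspase 8, had 51.7, 51.3 and 56.4 CPM in untreated and 51.4, 48.7 and 40.1 CPM in emetine libraries. Its log2 fold change was -0.18 (SE 0.11, edgeR adjusted p = 0.334). *BIK*, a BH3-only protein of the endoplasmic reticulum, had only 26 to 62 reads in a library, or 0.98 to 1.76 CPM, and its log2 fold change was -0.16 (SE 0.27, edgeR adjusted p = 0.739). Without emetine replicate 3 the log2 fold change was 0.12 for *BCL2L11*, 0.34 for *BBC3*, -0.08 for *BID* and 0.02 for *BIK*, and none of these passed.

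Of the 2 pore-forming effectors, *BAX* had 134, 144 and 146 CPM in the untreated and 122, 131 and 87.1 CPM in the emetine libraries. All 3 emetine libraries were below the untreated ones, with replicate 3 the lowest. The log2 fold change was -0.32 (SE 0.14, edgeR adjusted p = 0.233). It was -0.16 without emetine replicate 3. With the trend of levels on length and GC content of the transcript taken out of each library, it was -0.03. *BAX* is the shortest transcript of the members, with 795 bases. *BAK1* had 55.5, 64.9 and 51.0 CPM in untreated and 52.1, 59.8 and 52.3 CPM in emetine libraries, and its log2 fold change was -0.06 (SE 0.11, edgeR adjusted p = 0.753) and -0.03 without emetine replicate 3. In all, the emetine libraries lay above all untreated libraries for 3 members and below them for 1, and the same held for 19.5% and 15.2% of all genes tested. Exons of *BCL2L1*, *BCL2L11* and *BAK1* share 36.7%, 14.3% and 4.19% of their bases with genes on the opposite strand. The counting is not stated to use the strand, so reads of these pairs may be mixed.

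Compared per kilobase of transcript, *BAX* had the highest level in untreated cells, 177 ± 8.12 CPM per kb. It was followed by *MCL1* with 45.2 ± 2.89, *BAK1* with 26.3 ± 3.27, *BID* with 24.4 ± 1.29 and *PMAIP1* with 22.9 ± 3.15 CPM per kb, of which the last 3 did not differ beyond their spread. *BCL2L1* had 13.2 ± 0.54, *BCL2L11* 6.75 ± 0.33, *BBC3* 5.03 ± 0.71, *BIK* 1.6 ± 0.26 and *BCL2* 0.45 ± 0.11 CPM per kb. With emetine, *PMAIP1* stood at 42.5 ± 6.79 CPM per kb and *MCL1* at 56.5 ± 5.79 CPM per kb.

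The fraction new, the share of a gene's reads assigned to RNA made during the hour, separated the members into quickly and slowly renewed transcripts. In untreated cells, *BCL2L11* (BIM) was renewed fastest and *BAX* and *BID* slowest, while *MCL1* and *PMAIP1* lay side by side. None of the 8 members with at least 100 reads in each library changed its fraction new past the threshold, while 4.83% of 10763 genes tested were lower and 0.214% higher (limma, adjusted p under 0.05). At an unadjusted p under 0.05, limma called 1 of the 8 members, *BBC3*, but the share of all genes at that threshold is not given.

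**Figure D2:**
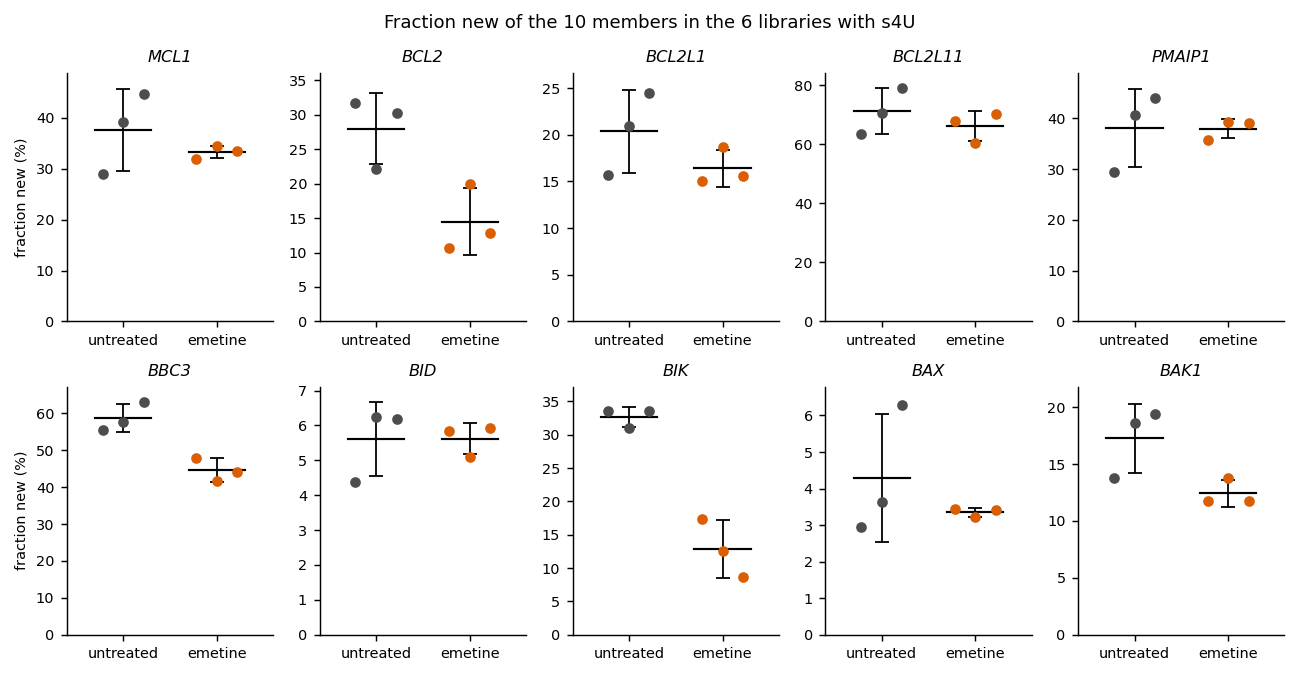
Fraction new in percent (y axis, from 0, each panel with its own scale) for each member in 3 untreated (gray) and 3 emetine (orange) libraries with s4U, with the mean and SD of each group. *BBC3* lies lower in every emetine library than in every untreated one, as do *BCL2* and *BIK*, which rest on few reads.

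*BCL2L11* had a fraction new of 63.6%, 70.7% and 79.1% in untreated cells, rank 142 of 10763 genes from the top. *BBC3* had 55.5%, 57.6% and 63.0%, below *BCL2L11* in each library. *PMAIP1* had 29.4%, 40.7% and 44.1% and *MCL1* 28.9%, 39.2% and 44.7%, so that these neighbors did not differ beyond their spread. *BCL2L1* with 15.7%, 20.9% and 24.5% was above *BAK1* with 13.8%, 18.6% and 19.4% in each library. *BID* with 4.38%, 6.24% and 6.19% and *BAX* with 2.96%, 3.65% and 6.28% were the lowest. The median of all genes tested was 12.2%. The libraries themselves differed in labeling, with a median gene at 9.26%, 12.3% and 14.7% in untreated replicates 1, 2 and 3 and at 10.3% to 11% in the emetine libraries.

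Under the assumption of a steady state, these fractions correspond to half-lives in untreated cells of 33.9 ± 7.30 min for *BCL2L11*, 47.2 ± 4.88 min for *BBC3*, 90.2 ± 25.6 min for *PMAIP1* and 92.0 ± 26.9 min for *MCL1*. *BCL2L1* came to 190 ± 49.1 min, *BAK1* to 225 ± 48.3 min, *BID* to 742 ± 162 min and *BAX* to 1048.5 ± 377 min. The transcripts of the effectors thus had longer half-lives than those of 3 of the 4 BH3-only genes measured. *BID* is the exception, and half-lives many times the labeling hour are poorly set by it. From reads across exon junctions alone, which are RNA already spliced, the half-life of *BAK1* was 232 min, but *BID* came to 1195 min and *BAX* to 1652 min.

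With emetine, *PMAIP1* had a fraction new of 35.8%, 39.2% and 39.0%, and its logit differed from that of untreated cells by 0.01 (SE 0.22, limma adjusted p = 0.995). *MCL1* had 32.0%, 34.4% and 33.5%, within the untreated range (difference in logit -0.18, SE 0.22, limma adjusted p = 0.788), beside a median difference of -0.16 over all genes tested. *BCL2L11* had 68.0%, 60.3% and 70.1% (difference in logit -0.25, SE 0.26, limma adjusted p = 0.727). The groups overlapped for each of these genes. Leaving out 1 library moved the difference of *MCL1* between -0.37 (without untreated replicate 1, limma adjusted p = 0.063) and -0.02 (without untreated replicate 3), and that of *BCL2L11* between -0.43 and -0.04 without the same libraries.

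*BBC3* had a fraction new of 48.0%, 41.7% and 44.1% with emetine, below every untreated library. Its logit differed by -0.57 (SE 0.24), with a limma adjusted p of 0.169 and an unadjusted p of 0.018. In limma fits that left out 1 library each, the adjusted p was 0.015 without untreated replicate 1 and between 0.321 and 0.572 without each other library. *BAK1*, the effector with the faster turnover, had 11.7%, 13.8% and 11.7% with emetine (difference in logit -0.38, SE 0.21, limma adjusted p = 0.374), and passed without untreated replicate 1 (limma adjusted p = 0.025). Untreated replicate 1 had the lowest median fraction new of all libraries, and without it 2524 in place of 520 genes were called lower. Of the remaining members, *BCL2L1* had 15% to 18.7%, *BID* 5.11% to 5.93% and *BAX* 3.22% to 3.44% with emetine, each overlapping with the untreated libraries (limma adjusted p-values of 0.636, 0.988 and 0.767). The difference in logit of *BCL2L1* was -0.25, with -0.40 without untreated replicate 1 and -0.13 without untreated replicate 3. Thus 1 of the 8 members lay below and 0 above the untreated range in all emetine libraries, against 16.8% and 2.19% of genes. With libraries centered on their median genes, limma called 126 genes higher and 748 lower in place of 23 and 520, and again no member.

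*BCL2* and *BIK* had too few reads for this test. *BIK* had conversions in 15 of 49, 15 of 44 and 11 of 33 reads in the untreated libraries and in 10 of 53, 8 of 62 and 2 of 26 reads with emetine. Its fraction new was 33.5%, 31.0% and 33.6% without and 17.3%, 12.6% and 8.62% with emetine. *BCL2* had conversions in 29 of 93, 29 of 129 and 14 of 47 reads in untreated cells and in 12 of 108, 27 of 120 and 19 of 137 reads with emetine. Its fraction new was 31.6%, 22.1% and 30.2% without and 10.7%, 19.9% and 12.8% with emetine. Both genes were lower in each emetine library than in each untreated one, as were 14.1% of the 2182 genes with 20 or more reads in each library and under 100 in at least 1, while 4.08% of these were higher. The smallest p of an exact permutation test on groups of this size is 0.1.

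Reads were next split by the fraction new into labeled ones, counted as made during the hour, and unlabeled ones, counted as made before it. *PMAIP1* was the member that passed in both parts: its labeled reads rose 1.85-fold and its unlabeled reads 1.85-fold. Of 10763 genes tested with limma on log2(CPM + 0.5), 0.26% had more and 0.632% fewer labeled reads, and 7.3% had more and 0.0929% fewer unlabeled reads, against 1 of 8 members with more and 0 with fewer in each part. At an unadjusted p under 0.05, limma called *PMAIP1* higher and *BAX* and *BAK1* lower in labeled reads, and *PMAIP1*, *MCL1* and *BBC3* higher in unlabeled reads. The share of all genes at this unadjusted threshold is not given, so these calls are a description only.

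**Figure D3:**
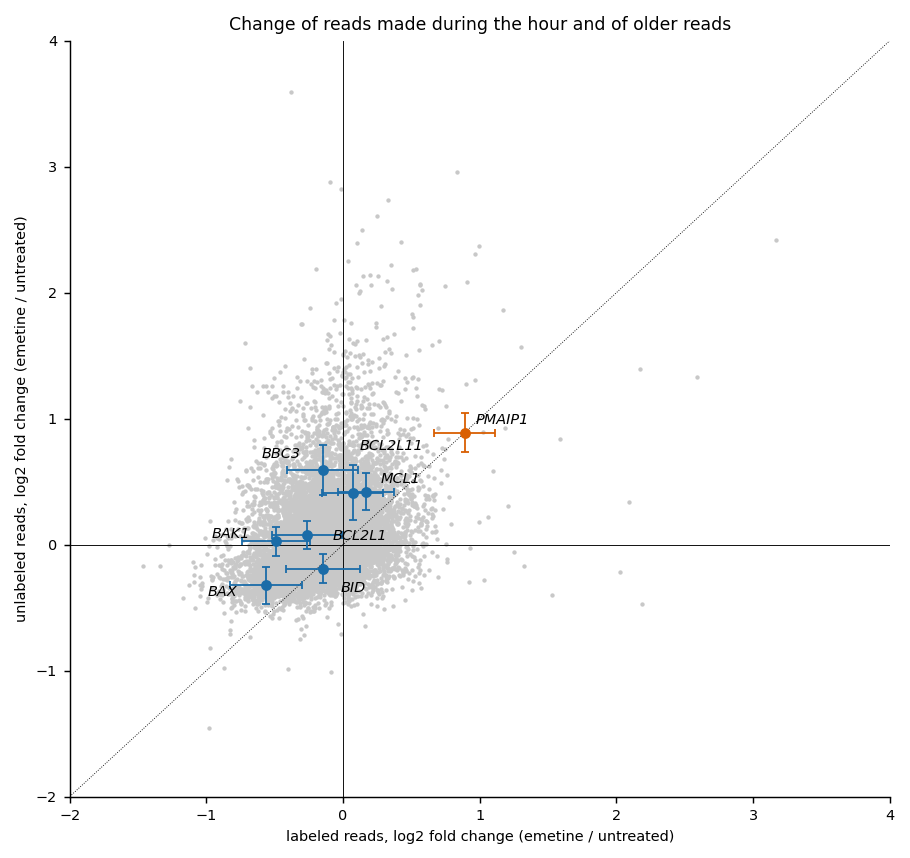
Log2 fold change with emetine of labeled reads (x axis) and of unlabeled reads (y axis) for 8 members (colored, with SE) and all 10763 genes tested (light gray), with a dotted line where both are equal. *PMAIP1* (orange) lies on that line at 0.89 and 0.89, while *BBC3* lies at -0.15 and 0.59.

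The labeled level of *PMAIP1* was 12.6, 15.3 and 21.9 CPM in untreated and 27.8, 27.4 and 37.0 CPM in emetine libraries. Its log2 fold change of 0.89 (SE 0.22, limma adjusted p = 0.017) ranked 27th of all genes tested. This call was lost without untreated replicate 2 and without each emetine library in turn (limma adjusted p-values from 0.125 to 0.503), with log2 fold changes of 0.75 to 0.96, and with spike-in scaling (1.5, SE 0.47, limma adjusted p = 0.545). The unlabeled level was 30.2, 22.4 and 27.8 CPM in untreated and 49.8, 42.4 and 57.9 CPM in emetine libraries (log2 fold change 0.89, SE 0.15, limma adjusted p = 0.009). The limma adjusted p was 0.051 and 0.056 without untreated replicates 2 and 3. In both parts every emetine library was above every untreated one.

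*MCL1* had a labeled level of 55.2, 68.1 and 75.9 CPM in untreated and 70.4, 69.4 and 82.9 CPM in emetine libraries, with overlap (log2 fold change 0.17, SE 0.21, limma adjusted p = 0.824). Its unlabeled level was 136, 106 and 94.0 CPM in untreated and 150, 132 and 164 CPM in emetine libraries, also with overlap (log2 fold change 0.42, SE 0.15, limma adjusted p = 0.126). *BBC3* had 4.57, 4.15 and 2.88 CPM of unlabeled reads without and 5.98, 7.01 and 5.10 CPM with emetine. These groups did not overlap (log2 fold change 0.59, SE 0.20, limma adjusted p = 0.114), and the gene passed without emetine replicate 3 (0.70, limma adjusted p = 0.029). Its labeled level overlapped between the groups, at 4.90 to 5.69 CPM without and 4.02 to 5.52 CPM with emetine. *BCL2L11* had a log2 fold change of 0.41 (SE 0.22) in unlabeled and 0.07 (SE 0.22) in labeled reads, with limma adjusted p-values of 0.249 and 0.942. Without emetine replicate 3 the labeled log2 fold change was 0.09 for *MCL1*, -0.03 for *BCL2L11* and -0.03 for *BBC3*.

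For the effectors the labeled part had negative fold changes, which went to 0.01 and 0.10 with spike-in scaling. *BAX* had 3.96, 5.23 and 9.17 CPM of labeled reads in untreated and 4.18, 4.2 and 2.97 CPM in emetine libraries (log2 fold change -0.56, SE 0.26, limma adjusted p = 0.347). *BAK1* had 7.64, 12.1 and 9.90 CPM without and 6.11, 8.25 and 6.15 CPM with emetine (log2 fold change -0.49, SE 0.25, limma adjusted p = 0.408). Without untreated replicate 1 both passed, at -0.81 and -0.65 (limma adjusted p-values of 0.020 and 0.026). In that fit, 1737 in place of 68 genes were called with fewer labeled reads. The remaining members had labeled log2 fold changes of -0.27 (*BCL2L1*) and -0.15 (*BID*, -0.09 without emetine replicate 3), beside a median of -0.14 over all genes. In unlabeled reads, *BAX* had a log2 fold change of -0.32 (-0.14 without emetine replicate 3) and *BID* of -0.19 (-0.08 without it), and neither passed limma. With spike-in scaling, the counts of genes with more and with fewer labeled reads were 10 and 0 in place of 28 and 68.

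The libraries without s4U gave the change with emetine in cells that were not labeled, from 1 library a group and hence with no test within the pair. Here *PMAIP1* had 58.0 CPM in the untreated and 62.5 CPM in the emetine library, a ratio of 1.08 with a 95% counting interval of 1.01 to 1.16. The untreated library without s4U was above, and the emetine library without s4U below, every library of the same treatment with s4U. How many of all genes lay this way was not counted. In a fit of all 8 libraries, chosen after these levels were seen, the log2 effect of emetine on *PMAIP1* was larger with s4U than without by 0.79 (SE 0.28, edgeR adjusted p = 0.986). This fit assumes that the single libraries vary like the others, and its p is not independent of the levels that prompted it. No gene of 14102 passed this edgeR test after correction, and 597 (4.23%) had an unadjusted p under 0.05. The 362 other genes called higher in level had a median log2 fold change of 0.76 with s4U and 0.59 without. Without s4U, 96.7% of them were above 0. By the drop without s4U, *PMAIP1* ranked 20th of all 363 raised genes. These genes were picked by their levels with s4U, so a drop is partly built in. Whether s4U takes part in the change of *PMAIP1* was not tested beyond the fit of all 8 libraries.

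**Figure D4:**
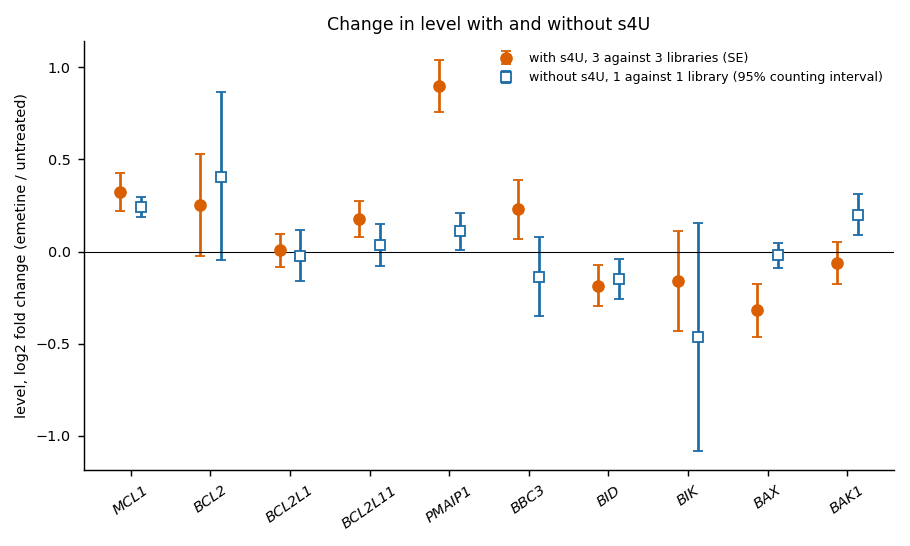
Log2 fold change in level with emetine (y axis) for each member with s4U (orange circles, 3 against 3 libraries, bars are SE) and without s4U (blue squares, 1 against 1 library, bars are 95% counting intervals). *MCL1* lies at 0.32 and 0.24, *PMAIP1* at 0.90 and 0.11.

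For *MCL1* the pair without s4U read 195 CPM untreated and 230 CPM with emetine, a ratio of 1.18 with a counting interval of 1.14 to 1.23, near the 1.25-fold difference with s4U. *BAK1* had 47.1 and 54.1 CPM (ratio 1.15, interval 1.06 to 1.24) and *BID* 53.9 and 48.6 CPM (ratio 0.90, interval 0.84 to 0.97). *BAX*, lower with emetine in the libraries with s4U, had 133 and 131 CPM, a ratio of 0.99 with an interval of 0.94 to 1.03. The intervals of *BCL2*, *BCL2L1*, *BCL2L11*, *BBC3* and *BIK* included a ratio of 1. These intervals cover counting error only. *BCL2L11*, at 45.3 CPM untreated and 46.4 CPM with emetine, was above all 6 libraries with s4U, and so was *BBC3*, at 14.2 and 12.9 CPM. The share of all genes in this order was not counted, so it is a description only and not a result about these members.

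The same pair gave the background of the conversions. *MCL1* had at least 1 conversion in 1.52% and 2.01% of reads without s4U, against 30.5% to 44.8% in the libraries with s4U. At least 2 conversions were found in 0.04% and 0.07% of its reads without s4U, against 25.2% to 37.1%. For *BAX*, 1.40% and 2.13% of reads without s4U had a conversion, against 4.35% to 7.41% with s4U, and 2 or more conversions were in 0.00% and 0.02% against 2.25% to 4.69%. Every member with s4U was thus above this background in each library.

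In the 2 h experiment, the tables hold the authors' mean of normalized counts over all libraries, with no value per sample and no error. Per kilobase of transcript, this mean was 1686 for *PMAIP1*, 1351 for *MCL1*, 342 for *BAX* and 255 for *BCL2L11*. *BID* had 185, *BAK1* 177, *BCL2L1* 81.1 and *BCL2* 28.5. *PMAIP1* stood above *MCL1* and *BAX* here, and below both in untreated cells of the 1 h experiment. The experiments differ in library kit (total RNA at 2 h, mRNA at 1 h), in labeling and in normalization, and the mean includes the emetine libraries, so these cannot be told apart.

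Of the other genes of the pathway, few passed a test. None of the 10 further BCL2 family genes tested for level and of the 7 tested for fraction new was called, and the smallest p was that of *BCL2L12* (log2 fold change -0.31, SE 0.12, edgeR adjusted p = 0.198, unadjusted p = 0.028). These 10 had a median log2 fold change of -0.06. Of 16 genes of caspase activation, from cytochrome c to the inhibitors of apoptosis, none was called in level or fraction new, with a median log2 fold change of 0.05. In labeled reads *BIRC5*, an inhibitor of apoptosis that was picked here after its values were seen, passed with a log2 fold change of -0.88 (SE 0.22, limma adjusted p = 0.017). Over level and fraction new, *APAF1*, the scaffold of the apoptosome, had the smallest p of the 16 genes. Its fraction new was 15.6% ± 3.3 without and 9.73% ± 2.45 with emetine (limma adjusted p = 0.138, unadjusted p = 0.013). Of the ubiquitin ligases and deubiquitinases that act on MCL1, 8 were tested for level and 7 for fraction new, and none passed. *FBXW7*, a ligase subunit that recognizes MCL1, was nearest, with a fraction new of 55.6% ± 12.4 without and 37.7% ± 3.56 with emetine (limma adjusted p = 0.054). The 3 VDAC channels, of which VDAC2 holds BAK at mitochondria, gave no call either, with *VDAC3* at a log2 fold change of -0.27 (SE 0.13, edgeR adjusted p = 0.250).

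Of 8 transcription factors of BH3-only genes, 1 was called in level (higher), 1 in fraction new (lower), 1 in labeled and 3 in unlabeled reads (all higher), where 7.3% of all genes were called higher in unlabeled reads. *ATF3*, a stress-induced factor of the ATF and CREB family, rose from 23.0 ± 4.27 to 86.4 ± 4.23 CPM (log2 fold change 1.91, SE 0.14, edgeR adjusted p = 0.000845), and both its labeled reads (2.17, SE 0.22) and unlabeled reads (1.39, SE 0.23) passed limma. *DDIT3*, which encodes CHOP, fell in fraction new from 76.7% ± 3.53 to 51.6% ± 1.95 (limma adjusted p = 0.0020). Its unlabeled reads rose by 1.73 (SE 0.21, limma adjusted p = 0.0025) on the log2 scale, and its labeled reads did not pass (0.24, SE 0.24). *FOXO1*, also picked after its values were seen, passed in unlabeled reads (0.73, SE 0.15, limma adjusted p = 0.020). In level, the 8 factors had a median log2 fold change of 0.20.

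The genes most like *MCL1* were sought over 12 values, the labeled and unlabeled log2 levels in 6 libraries, each centered on the untreated mean. Among 10762 genes, *RIPK1*, *PLK4*, *KDM3A*, *USP1* and *ZRANB1* were nearest, with root mean square differences of 0.083 to 0.085, against a median of 0.347. Their untreated fraction new was 19.0% to 34.6%, beside 37.6% for *MCL1*. The labeled and unlabeled levels are calculated from the fraction new of each library, so these values are not independent of the likeness. Among the members, *BCL2L11* was nearest to *MCL1*, at a difference of 0.178 and rank 543. *PMAIP1* was at 0.453 and rank 8186, and *BAX* was the farthest of the 7 members compared, at 0.610.

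**Figure D5:**
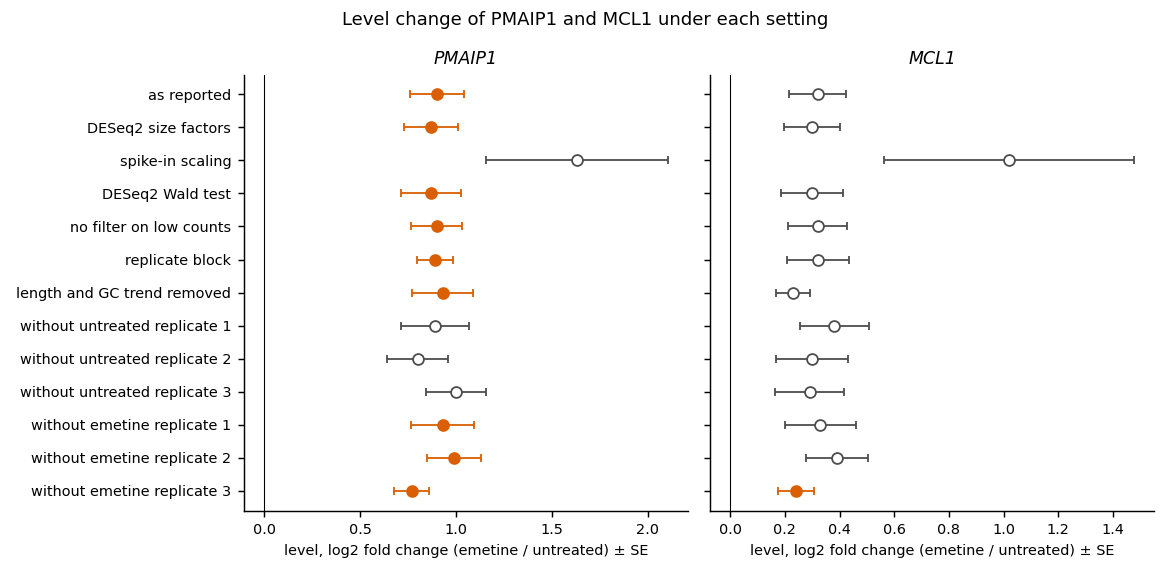
Log2 fold change in level with emetine (x axis) with SE for *PMAIP1* and *MCL1* under each processing setting (y axis), filled orange where the adjusted p was under 0.05. *PMAIP1* stayed between 0.77 and 1.63 and lost its call in 4 of 12 alternatives, and *MCL1* stayed between 0.23 and 1.02 and passed in 1.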

How the data were processed

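HEK-293T cells received s4U for 1 h, alone or together with emetine at 1.8 µM, and mRNA was sequenced after conversion of s4U. Per the submitters' notes and methods, the authors trimmed reads with cutadapt, mapped them to hg38 with a HISAT-based aligner that allows T-to-C changes, and deposited a table of read counts by library, gene, number of T positions and number of conversions. The annotation and the use of strand in counting are not given in the sources used here. The deposited 2 h tables hold a mean normalized signal per gene over all 2 h libraries, scaled by the authors to spike-in reads. Their columns of fold changes and p-values, the authors' own comparisons, and the table of 2 h spike-in factors were not used.

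Levels were tested on 1 h counts (over 100 in total) with edgeR 4.0.16 (quasi-likelihood, TMM) in R 4.3.3. The fraction new is the weight of new reads in a mixture of 2 binomial distributions of conversions per T, with the background rate (0.0504% and 0.0521%) from the library without s4U and a new-read rate (8.49% to 9.53%) fitted per library. Logits of genes with 100 or more reads in each library, and log2(CPM + 0.5) of labeled and unlabeled reads, were tested with limma 3.58.1. All p-values are two-sided and were adjusted by Benjamini-Hochberg over all genes, with a threshold of 0.05. Ratios without replicates have exact binomial 95% intervals, which cover counting error only. Scripts were tested on simulated data. For fraction new, these had noise drawn apart for each gene and library, without the shift of whole libraries seen here. They do not show how the test behaves under such shifts. DESeq2 1.42.0, other scalings, filters and reads, and leaving out each library were the alternatives.

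The members and gene lists were chosen with earlier results of these data known. From each list, genes that passed in level or fraction new were named, or else the gene with the smallest p. The labels do not say whether replicates were separate cultures, so p-values measure only the spread between these samples, which may be technical. Gene models were matched by symbol for 17147 and by older symbol for 1148 of 19222 genes, and 927 were unmatched. Some results for single genes are not reported here.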

Additional observations from a re-analysis of the deposited data

How the results depend on the processing

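Emetine replicate 3, depth and the choice of libraries limit these values. *BCL2* and *BIK* rest on 47 to 137 and 26 to 62 reads in a library, and the depth of the 2 h means is unknown. Against 363 genes higher and 6 lower in level, spike-in scaling gave 60 and 0, DESeq2 820 and 156, the replicate block 75 and 3, and removal of the length and GC trend 968 and 182. Leaving out 1 library gave 4 to 1367 higher and 0 to 525 lower. With spike-in scaling 0 members were higher in level and 0 in labeled reads, and leaving out 1 library gave 0 to 2 and 0 to 1.

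For fraction new, against 23 higher and 520 lower, a minimum of 50 reads gave 14 and 298, a minimum of 500 reads 14 and 227, and junction reads 0 and 0. Centering gave 126 higher, precision weights 13 and the replicate block 40, and leaving out 1 library gave 10 to 41 higher and 94 to 2524 lower, with 0 to 2 members lower. For labeled reads, against 28 higher and 68 lower, spike-in scaling gave 10 and 0, and leaving out 1 library 13 to 64 and 2 to 1737, with 0 to 2 members lower. For unlabeled reads, against 786 higher and 10 lower, spike-in scaling gave 386 and 0, the replicate block 350 higher, and leaving out 1 library 271 to 1444 and 4 to 324, with 0 to 2 members higher. The cause of these shifts was not tested.

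Directions turned for values near 0 or with spike-in scaling. That scaling gave level changes of 0.51 (*BID*), 0.50 (*BIK*), 0.33 (*BAX*) and 0.56 (*BAK1*). It gave labeled changes of 0.32 (*BCL2L1*), 0.42 (*BBC3*), 0.39 (*BID*), 0.01 (*BAX*) and 0.10 (*BAK1*), and unlabeled changes of 0.43 (*BID*) and 0.30 (*BAX*). Both DESeq2 size factors and the DESeq2 test gave -0.02 for the level of *BCL2L1*, and removal of the length and GC trend 0.07 for *BIK* and 0.05 for *BAK1*. Reads with 2 or more conversions gave -0.04 for the fraction new of both *PMAIP1* and *BID*. Leaving out 1 library gave level changes of -0.04 to 0.41 (*BCL2*), -0.03 to 0.04 (*BCL2L1*), -0.29 to 0.02 (*BIK*) and -0.14 to 0.04 (*BAK1*). It gave fraction new changes of -0.18 to 0.14 (*PMAIP1*), -0.11 to 0.08 (*BID*) and -0.37 to 0.02 (*BAX*), labeled changes of -0.03 to 0.14 (*BCL2L11*) and unlabeled changes of -0.07 to 0.11 (*BAK1*).

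Deviations of same-numbered libraries correlated at 0.064, -0.013 and -0.168 in level and at 0.056, 0.0025 and 0.022 in fraction new (Pearson's r across genes). These values cannot decide whether replicate numbers pair the samples, since level deviations of the emetine libraries followed transcript length. The replicate block changed no call of a member. With the block, the log2 fold change in level of *PMAIP1* was 0.89 (SE 0.09). Spike-in scaling left the direction of *PMAIP1* and *MCL1* as it was in level, at 1.63 and 1.02.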

Other observations

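The unlabeled reads of *PMAIP1* in emetine libraries, 50.1 CPM, were above its total level in untreated libraries, 43.4 CPM, a ratio of 1.15. For the other 7 members tested this ratio was 0.38 (*BCL2L11*) to 0.84. Of 1588 genes with an untreated fraction new over 30%, 397 (25%) had a ratio over 1, and *PMAIP1* ranked 130th among the 1588. For *PMAIP1* the ranges overlapped, at 42.4 to 57.9 CPM of unlabeled reads with emetine and 37.7 to 49.7 CPM in total without. The ratio was calculated after the values were seen and was not tested. RNA made before the hour cannot exceed the level at its start. On the CPM scale used here, unlabeled reads can thus not be taken as RNA made before the hour alone where the ratio is over 1. The cause was not tested.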
